A study of Homo sapiens with 9 samples.

Results

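The regions described here were called as peaks of DNA:RNA hybrid signal after RNase H treatment and in none of the untreated libraries. Peaks on chromosomes 1 to 22 and X of both RNase H-treated libraries were merged where they touched or overlapped, and a merged region was kept when it shared no base with a peak of any of 6 untreated libraries. Of 18190 merged treated regions, 8410 met this rule (46.2%, 95% Wilson interval 45.5 to 47.0). The other 9780 overlapped an untreated peak and serve as the comparison below. The regions were chosen by the peak calls themselves, so their absence from the untreated lists, their number and their fold values are given as description, without a test. The name says no more than that no untreated peak was called there: signal below the authors' calling threshold in an untreated library is not in the lists.

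The cells were SH-SY5Y, an established human neuroblastoma line, stably transduced with a lentiviral vector that drives a short hairpin RNA from a U6 promoter. Hairpin shTDP43 targeted TDP-43, an RNA- and DNA-binding protein, and shNC was the control hairpin, cloned in the same vector. Knockdown cells were kept under 2 µg/mL puromycin for 2 weeks and 1 µg/mL afterwards, and the labels do not say so separately for shNC. The labels do not call the lines single clones. All libraries came from 6 µg of nucleic acid cut with 5 restriction enzymes (BsrGI, EcoRI, HindIII, SspI and XbaI) and precipitated with 8 µL of S9.6, an antibody to DNA:RNA hybrids. The groups were shTDP43 after 6 h of RNase H (1 library), shNC after 6 h of RNase H (1 library), untreated shTDP43 (3 libraries) and untreated shNC (3 libraries). The labels name the RNase H libraries as the negative control of the assay. The purified precipitate was sonicated before library construction. Peak lists do not measure TARDBP RNA or protein, so the knockdown cannot be checked from them.

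R-loops are structures in which an RNA strand pairs with its template DNA and leaves the other DNA strand unpaired. They form during transcription, often near the promoters and ends of active genes, and RNase H degrades the RNA of the hybrid. Sites that S9.6 captures after RNase H are therefore commonly used to judge the part of a DRIP signal that does not depend on RNase H-sensitive hybrids.

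Some of these regions reached into the 300-base RefSeq promoter windows (GRCh38.p14, which shares its chromosome coordinates with hg38, from 250 bases before to 50 bases after the annotated gene start). The following 4 windows ranked highest by the lower of the folds in both treated libraries, among windows under a region called in both. Each is written 5′ to 3′ on the strand of its gene, with the bases under the region in capitals. They lie at chr13:31437286-31437585 (plus strand), chr4:76036021-76036320 (minus strand), chr1:62194599-62194898 (plus strand) and chr5:159227465-159227764 (plus strand).
LOC105370150: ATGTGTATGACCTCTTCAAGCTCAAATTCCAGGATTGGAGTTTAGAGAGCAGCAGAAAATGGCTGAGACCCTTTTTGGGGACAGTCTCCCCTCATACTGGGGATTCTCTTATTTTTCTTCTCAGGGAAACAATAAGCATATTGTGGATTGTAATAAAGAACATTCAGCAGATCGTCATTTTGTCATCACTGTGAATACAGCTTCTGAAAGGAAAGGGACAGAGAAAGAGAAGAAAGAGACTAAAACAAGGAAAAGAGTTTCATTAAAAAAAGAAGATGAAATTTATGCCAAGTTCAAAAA
CXCL11: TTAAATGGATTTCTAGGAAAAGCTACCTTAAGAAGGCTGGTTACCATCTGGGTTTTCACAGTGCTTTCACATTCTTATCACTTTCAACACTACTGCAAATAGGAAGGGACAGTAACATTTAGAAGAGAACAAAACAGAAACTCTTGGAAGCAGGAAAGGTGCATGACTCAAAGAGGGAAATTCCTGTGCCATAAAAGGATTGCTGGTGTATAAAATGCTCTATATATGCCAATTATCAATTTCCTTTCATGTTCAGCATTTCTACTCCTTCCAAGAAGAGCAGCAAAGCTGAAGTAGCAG
L1TD1: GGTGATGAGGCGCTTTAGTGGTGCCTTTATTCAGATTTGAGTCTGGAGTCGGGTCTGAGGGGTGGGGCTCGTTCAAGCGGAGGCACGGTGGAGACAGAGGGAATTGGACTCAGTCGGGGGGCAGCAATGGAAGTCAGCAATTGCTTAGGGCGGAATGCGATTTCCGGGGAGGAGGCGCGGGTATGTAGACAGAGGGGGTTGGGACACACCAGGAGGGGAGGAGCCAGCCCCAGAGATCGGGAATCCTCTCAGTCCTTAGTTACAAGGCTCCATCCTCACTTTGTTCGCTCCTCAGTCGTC
LINC01932: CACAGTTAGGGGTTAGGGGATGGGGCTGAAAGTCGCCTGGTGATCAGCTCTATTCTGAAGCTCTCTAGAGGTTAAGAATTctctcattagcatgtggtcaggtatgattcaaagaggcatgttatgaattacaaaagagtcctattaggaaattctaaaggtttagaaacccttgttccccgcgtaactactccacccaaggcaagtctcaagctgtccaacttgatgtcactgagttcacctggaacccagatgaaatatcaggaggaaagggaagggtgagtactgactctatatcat

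LOC105370150 was wholly under a region of 779 bp whose fold enrichment was 13.4 in shTDP43 RNase H and 19.9 in shNC RNase H. CXCL11, which encodes an interferon-induced chemokine, lay under a region of 722 bp with folds of 11.6 in shTDP43 RNase H and 14.04 in shNC RNase H. At L1TD1, a gene for an RNA-binding protein derived from a LINE-1 element, the region was 3917 bp wide and its folds were 9.54 in shTDP43 RNase H and 9.12 in shNC RNase H. The region at LINC01932 ended inside the window, at the last capital, with folds of 8.04 in shTDP43 RNase H and 8.26 in shNC RNase H. That last capital is the last of the 4 overhang bases of an EcoRI site (GAATTC). None of the 4 windows was near an untreated peak: the nearest lay 16.2 kb away at LINC01932 and 205 kb away at LOC105370150.

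The second set of sequences shows where region edges fell on restriction sites, with 1 example per enzyme, the one with the highest fold in either treated library. Each line gives 40 bases of the plus strand of GRCh38.p14 from RefSeq, with the enzyme's recognition site in capitals. The windows are chr3:108311558-108311597, chr5:159227523-159227562, chrX:6535317-6535356, chr11:35281806-35281845 and chr7:155205660-155205699.
HHLA2 (HindIII): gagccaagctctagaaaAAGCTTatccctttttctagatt
LINC01932 (EcoRI): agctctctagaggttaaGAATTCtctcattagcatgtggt
VCX3A (SspI): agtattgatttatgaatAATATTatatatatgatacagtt
SLC1A2-AS1 (BsrGI): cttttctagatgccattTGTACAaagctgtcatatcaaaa
LOC124901783 (XbaI): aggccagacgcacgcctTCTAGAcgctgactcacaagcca

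The regions at HHLA2 and LINC01932 were called in both treated libraries, those at VCX3A and SLC1A2-AS1 in shNC RNase H alone, and the one at LOC124901783 in shTDP43 RNase H alone. At HHLA2 the region began at the first base after the cut, and its folds were 6.46 in shTDP43 RNase H and 12.0 in shNC RNase H. The region at VCX3A ended at the blunt SspI cut with a fold of 7.75 in shNC RNase H. At SLC1A2-AS1 the fold was 5.68 in shNC RNase H, and at LOC124901783 it was 4.02 in shTDP43 RNase H.

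All counts below can be set against the depth of the libraries. The treated lists held 8868 peaks (shTDP43) and 15504 peaks (shNC) on the chromosomes used, against 57204 to 70016 in untreated shTDP43 and 69453 to 73353 in untreated shNC libraries. The lists hold no read counts, but the pileup at a summit and its local background could be solved from the deposited fold and p-value. This assumes that MACS2 added a pseudocount of 1 to pileup and background and took p from a Poisson distribution, settings that the labels do not state. All pileup, background and depth values rest on that assumption. The background floor, the lowest common background and a relative depth, was 0.991 in shTDP43 RNase H and 0.936 in shNC RNase H. It was 1.05, 1.68 and 1.94 in untreated shTDP43 replicates 1 to 3 and 2.01, 1.93 and 1.62 in untreated shNC replicates 1 to 3. By this measure the treated libraries were the shallowest, and untreated shTDP43 replicate 1 was the shallowest of the untreated. Of 10 genes that mark SH-SY5Y, 9 carried peaks in all 6 untreated libraries (GATA3, HAND2 and DBH among them), and TH carried none. Their summed covered length was 94.0 to 106.6 kb in untreated shTDP43 and 97.4 to 102.9 kb in untreated shNC libraries. Over 6 genes of other cell types the sum was at most 0.617 kb in untreated shTDP43 and 0.898 kb in untreated shNC libraries, with no peak in any of them at ALB, CD3E, INS and MYH6. The regions seen only after RNase H overlapped none of these genes in either list.

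Regions called in both treated libraries were a minority. Of the 8410 regions, 2174 were in both (25.9%, 24.9 to 26.8), 1586 in shTDP43 RNase H alone and 4650 in shNC RNase H alone. Among treated regions that overlapped an untreated peak, 3262 of 9780 (33.4%, 32.4 to 34.3) were in both. The 2174 shared regions had a median width of 691.5 bp, whereas regions of shTDP43 RNase H alone measured 341 bp and those of shNC RNase H alone 383 bp. In all, the regions covered 4.50 Mb, against 7.53 Mb under the overlapping treated regions. The widest was 5275 bp, and the widest overlapping region was 19730 bp.

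Most of these peaks were weak. In shTDP43 RNase H, 3875 of 8868 peaks (43.7%) lay in such regions, with a median fold of 4.94 and a range of 2.50 to 35.0. Peaks of the same library that overlapped an untreated peak had a median fold of 5.51 and reached 111. In shNC RNase H, 6868 of 15504 peaks (44.3%) lay in such regions, with a median fold of 5.01 and a range of 2.47 to 35.1, against a median of 5.17 and a highest fold of 124 for overlapping peaks. The pileup at the summit was 6 at the least and 10 at the median in both libraries. Folds above 10 were held by 183 of the shTDP43 RNase H peaks (4.72%) and 357 of the shNC RNase H peaks (5.20%), against 13.8% and 13.4% of the overlapping peaks of those libraries. Overlapping peaks were mostly weak too, with a median pileup of 11 in shTDP43 RNase H and 10 in shNC RNase H. The untreated lists had median folds of 4.33 to 4.77. These folds and q-values are the authors', 1 per peak, and describe peaks within a list.

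The share of such peaks was lower among strong peaks, and the share also found in the other treated library was higher. Peaks of each list were ordered by −log10 q and divided into quintiles. Seen only after RNase H were 51.0% (48.7 to 53.3) of the weakest and 26.9% (24.9 to 29.0) of the strongest quintile in shTDP43 RNase H. The values in shNC RNase H were 51.3% (49.5 to 53.1) and 32.2% (30.6 to 33.9), with the quintiles between them at 45.2% to 47.3%. In the strongest quintile, 95.6% (93.4 to 97.1) of the shTDP43 RNase H peaks without an untreated counterpart were also called in shNC RNase H, against 33.1% (30.2 to 36.3) in the weakest. Of the shNC RNase H peaks without one, 81.6% (79.0 to 83.8) of the strongest and 9.74% (8.38 to 11.3) of the weakest were also called in shTDP43 RNase H. The strongest peaks were thus mostly shared, in lists of unequal length.

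**Figure D1:**
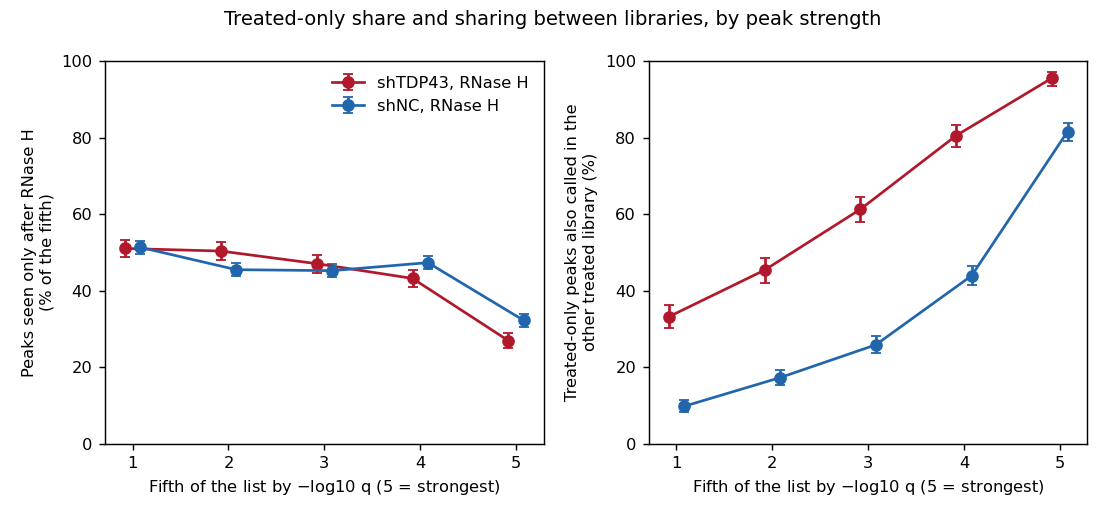
Share of treated peaks seen only after RNase H (left) and share of those also called in the other treated library (right), in percent, by quintile of −log10 q within each list. Red is shTDP43 RNase H, blue is shNC RNase H, and bars are 95% Wilson intervals for counting error only. The left share ends at 26.9% and 32.2% in the strongest quintile, and the right share at 95.6% and 81.6%.

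Within the 2174 shared regions the fold had a median of 5.52 in shTDP43 RNase H and 6.33 in shNC RNase H. It was the higher of the 2 values in shTDP43 RNase H in 671 regions (30.9%). Across these regions the folds of both libraries had a Spearman correlation of 0.54 (n = 2174), against 0.75 over 3262 overlapping regions. These points share libraries and depth and are given as a description. A fold above 10 in both libraries was reached by 151 regions, against 623 overlapping regions. Regions in 1 library alone peaked lower, with median folds of 4.50 (highest 13.4) in shTDP43 RNase H and 4.65 (highest 12.9) in shNC RNase H.

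Ranked by the lower of the folds in both libraries, the highest shared region lay in ANK2, the gene for the membrane adaptor ankyrin-B, at chr4:113375043-113375887 (hg38). Its fold was 35.0 with a pileup of 70 in shTDP43 RNase H and 34.0 with a pileup of 66 in shNC RNase H, and −log10 q was 96.5 and 91.2. Its start and its end were at the same base in both libraries. By −log10 q it was not the highest: peaks without an untreated counterpart reached 116 in shTDP43 RNase H and 129 in shNC RNase H. The nearest untreated peak was 5.34 kb away. A site in the strongest quintile of both treated lists thus had no called counterpart in the 6 untreated libraries.

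The next regions were of the same kind. In ALMS1, a gene of the centrosome and cilium, chr2:73512960-73513831 had folds of 27.6 in shTDP43 RNase H and 35.1 in shNC RNase H. A region 41.1 kb from TARBP1, at chr1:234520237-234521364, had 23.6 and 30.7 in those libraries. At LINC02245, chr2:64927936-64929294 had folds of 22.9 in shTDP43 RNase H and 22.2 in shNC RNase H. These 3 regions had pileups of 43 to 73 where the median peak had 10.

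A region 1.83 kb from TFAM, which encodes the main transcription factor of mitochondrial DNA, had folds of 21.9 in shTDP43 RNase H and 26.4 in shNC RNase H (chr10:58401050-58402063). In RERE, a nuclear receptor co-regulator gene, chr1:8547112-8547495 had 21.5 in shTDP43 RNase H and 30.5 in shNC RNase H, only 0.196 kb from an untreated peak. ERC1, a scaffold gene of the presynaptic active zone, held chr12:1097437-1099191 with 25.0 in shTDP43 RNase H and 20.5 in shNC RNase H. The remaining 3 of the top 10 lay at LOC105377329, in SPATS2L and in RALGAPB, with folds of 18.6 to 20.6 in shTDP43 RNase H and 23.2 to 23.3 in shNC RNase H. Of these 10 regions, 6 were inside a coding gene span, and the annotation used gives gene spans without exons, so exon or intron is not stated.

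The widest regions were not the strongest. At chr20:32612240-32617514, 14.1 kb from C20orf203, the region of 5275 bp had folds of 8.04 in shTDP43 RNase H and 7.23 in shNC RNase H and joined 3 and 2 peaks of those libraries. A region of 4890 bp at chr2:101620411-101625300, 72.4 kb from MAP4K4, had 6.03 in shTDP43 RNase H and 7.75 in shNC RNase H. AIPL1, a photoreceptor chaperone gene, held 4686 bp with 6.53 in shTDP43 RNase H and 5.62 in shNC RNase H. ZMYM2 held 3640 bp with 7.76 in shTDP43 RNase H and 8.26 in shNC RNase H. The L1TD1 region shown above was the remaining one of the 5 widest.

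Regions of a single treated library reached lower folds. Pileup did not follow throughout: its highest value in shTDP43 RNase H was 438 in regions of that library alone and 262 in shared ones. In shNC RNase H it was 84 and 357. The highest in shTDP43 RNase H alone, chr13:16238271-16238541, had a fold of 13.4 on a pileup of 43 and lay 2935 kb from the nearest coding gene, TUBA3C. Its local background was 2.28, above the library's floor of 0.991. The next 4 lay near MEI4 (11.0), in IMMP1L (9.54), near PRELID2 (9.54) and near SPDYE21 (9.48). In shNC RNase H alone the highest were near TMEFF2 (12.9), in DESI2 (11.6), near ASAH2B (10.9), near CCDC91 (10.8) and in MECOM (10.8). The widest of a single library were in USP6NL (1663 bp) and RCOR2 (1428 bp) for shTDP43 RNase H, and in ERC2 (2454 bp) and GCNT2 (2300 bp) for shNC RNase H.

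Few regions sat at the margin of the rule, yet the margin had a shape. Of the overlapping treated regions, 42 shared exactly 4 bp with untreated peaks, while 6, 8, 13 and 14 bp were shared by 1, 1, 2 and 1 regions. On the other side, 16 of the 8410 regions touched an untreated peak with a gap of 0 bp. The 57 regions within 100 bp of an untreated peak had a median width of 411 bp and a median fold of 5.02. The 84 overlapping regions that shared at most 100 bp had 389.5 bp and 4.77. Whether the 4 bp overlaps lie at restriction sites was not tested, since no genome sequence outside promoter windows was used.

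Most of the regions lay away from untreated peaks. The median distance to the nearest was 53.4 kb, with quartiles of 10.8 and 186 kb. Within 1 kb lay 5.89% (5.40 to 6.41), within 10 kb 23.9% (23.05 to 24.9) and within 100 kb 62.3% (61.2 to 63.3). The 2174 shared regions had a median of 56.5 kb, those of shTDP43 RNase H alone 56.9 kb and those of shNC RNase H alone 50.7 kb.

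The untreated libraries of both genotypes were compared in how often they had a peak within 10 kb of these regions. The rule bars overlap with these same lists but does not fix which library comes near. The p-values below are therefore not an independent contrast of the genotypes, and no conclusion on the knockdown is drawn from them. For the shared regions the share was 11.0%, 14.8% and 15.0% in untreated shTDP43 replicates 1 to 3, against 16.4%, 16.1% and 13.5% in untreated shNC replicates 1 to 3. The ranges overlapped, and shTDP43 replicate 1 was the lowest. The means were 13.6% ± 2.22 in shTDP43 and 15.3% ± 1.63 in shNC (SD, n = 3 each), a difference of −1.75 percentage points (2-sided exact permutation p = 0.4, adjusted p = 0.5 over 3 classes). For regions of shTDP43 RNase H alone the means were 14.5% ± 2.62 in shTDP43 and 16.3% ± 1.501 in shNC, a difference of −1.87 (exact permutation p = 0.4, adjusted p = 0.5). For regions of shNC RNase H alone they were 15.9% ± 2.65 in shTDP43 and 17.6% ± 1.48 in shNC, a difference of −1.72 (exact permutation p = 0.5, adjusted p = 0.5). Each difference was smaller than the SD of the shTDP43 libraries and larger than that of the shNC libraries. With 3 against 3 the smallest p possible is 0.1. The labels do not say that replicates came from separate cultures, so the p-values measure only the spread between these libraries. Without shTDP43 replicate 1, the shallowest untreated library, the differences shrank to −0.47, −0.38 and −0.20 percentage points for regions of both libraries, of shTDP43 RNase H alone and of shNC RNase H alone. They were −2.68 for regions of both libraries without shNC replicate 3, and −2.84 and −2.61 for regions of shTDP43 RNase H alone and of shNC RNase H alone without shTDP43 replicate 2. With untreated lists of equal length the 3 differences were −0.72, −0.95 and −0.86 percentage points. Within 5 kb they were −0.94, −1.20 and −1.47, and within 50 kb they were −2.59, −3.13 and −2.85.

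**Figure D2:**
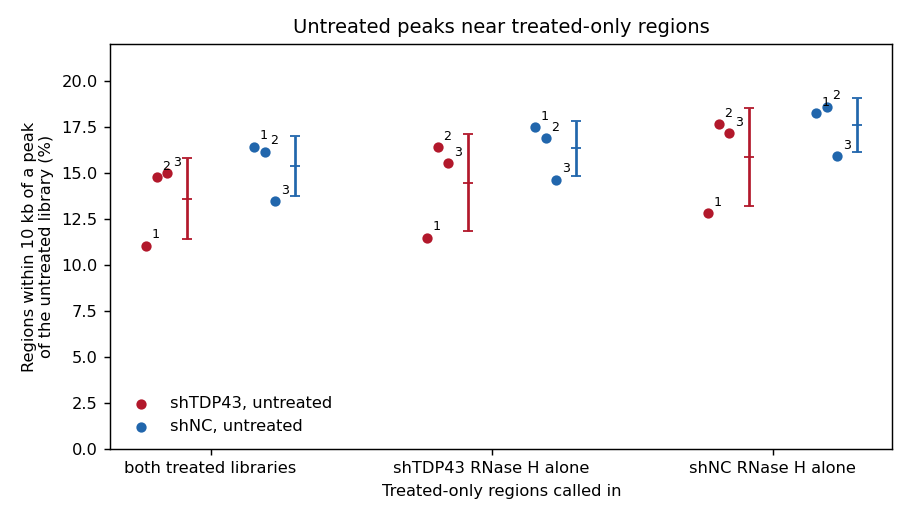
Share of regions seen only after RNase H that had a peak of an untreated library within 10 kb, in percent, for regions of both treated libraries, of shTDP43 RNase H alone and of shNC RNase H alone. Each point is 1 untreated library with its replicate number, red for shTDP43 and blue for shNC, and bars are mean ± SD of 3 libraries. The shTDP43 and shNC points overlap in each class, and shTDP43 replicate 1 is the lowest point.

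More of these regions than of the other treated regions lay outside protein-coding genes. Of the 8410, 4744 (56.4%, 55.3 to 57.5) shared no base with a protein-coding gene span, against 26.6% (25.7 to 27.4) of overlapping treated regions and 16.4% (16.2 to 16.7) of merged untreated regions. The larger part of them overlapped an annotated gene of some kind, and 42.5% (41.4 to 43.5) overlapped none, against 19.3% of overlapping treated and 10.7% of untreated regions. Starts and ends of coding genes, where R-loops are known to form, were counted together. Within 1 kb of either lay 1.91% (1.64 to 2.23) of the regions. The share was 19.9% (19.2 to 20.8) for overlapping treated and 16.96% (16.7 to 17.2) for untreated regions. A promoter window was overlapped by 44 of the 8410 regions (0.523%), by 515 overlapping treated regions (5.27%) and by 9593 untreated regions (9.65%). Of all 34781 windows, 15563 (44.7%) lay under an untreated peak, and bases under such a peak cannot hold a member. The shares at gene ends and promoter windows were not corrected for this, so they do not show that the regions avoid these places.

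Part of this contrast is fixed by the rule, because untreated peaks lay mostly in genes and the bases under them cannot hold a member. Over bases not under an untreated peak, there were 3.30 regions per Mb inside coding gene spans and 2.74 outside them. Coding genes without any untreated peak held 2.83 per available Mb, and coding genes with at least 1 held 3.45. Counting annotated genes of any kind, there were 3.20 per Mb inside and 2.68 outside. The length outside genes includes gaps in the assembly, which were not removed. On the available bases the regions were therefore spread nearly evenly, with a density slightly higher inside genes than outside.

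Long non-coding RNA genes were overlapped by 1348 regions (16.0%), against 12.1% of overlapping treated and 12.0% of untreated regions. Pseudogenes were overlapped by 134 regions (1.59%), against 1.75% and 2.79%. For the short RNA genes the counts were too few to read: 0 regions overlapped a transfer RNA, small nuclear RNA, ribosomal RNA or microRNA gene and 1 overlapped a small nucleolar RNA gene. Of the overlapping treated regions 2, 1, 5, 43 and 20 touched a gene of these 5 kinds, in that order.

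Protein-coding genes that held regions were long. At least 1 region lay in 2380 of 19970 coding genes (11.9%), whose median span was 133.2 kb, against 19.8 kb for the rest. The most regions were in CNTNAP2 (15), a neurexin-family adhesion gene, followed by SDK1 (12) and TENM2 (11), both genes for neuronal adhesion proteins. HDAC9, a class IIa histone deacetylase gene, LRRC4C, the netrin-G1 ligand gene, and ASIC2, an acid-sensing ion channel gene, held 10 each. CSMD1, MACROD2, CEP112 and ERC2 held 8 each. These 10 genes span 556.6 to 2304 kb, and the count of regions per gene had a Spearman correlation of 0.41 with span over the 19970 genes.

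Coverage of these genes by all peaks differed between genes. In CNTNAP2 (chr7:146116801-148420998) peaks covered 4.18 kb in shTDP43 RNase H and 7.33 kb in shNC RNase H, against 1.35, 2.23 and 2.70 kb in untreated shTDP43 and 4.83, 4.37 and 3.02 kb in untreated shNC libraries. Both treated libraries were above most untreated ones there, and the untreated groups did not overlap, a difference not tested here. CSMD1 (chr8:2935361-4994914) had 3.52 kb in shTDP43 RNase H and 4.30 kb in shNC RNase H and 0 kb in all 6 untreated libraries. LRRC4C (chr11:40114199-41459652) had 3.30 kb in shTDP43 RNase H and 4.13 kb in shNC RNase H, against 0, 0 and 0.369 kb in untreated shTDP43 and 0, 0.335 and 0 kb in untreated shNC libraries. SDK1 had 4.39 kb in shTDP43 RNase H and 4.46 kb in shNC RNase H, both below the untreated libraries, against 13.8 to 37.2 kb in untreated shTDP43 and 22.2 to 34.7 kb in untreated shNC libraries. Holding many of these regions therefore went with no, little or much untreated coverage, depending on the gene.

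Per length, the densest genes with at least 4 regions were LOC107985876 (10.4 per 100 kb), PARP15 (6.51), an ADP-ribosyltransferase gene, MUC4 (6.14), a membrane mucin gene, TRPM2 (4.32), a cation channel gene, and ADCY10 (3.82), the soluble adenylyl cyclase gene. No untreated library had a peak in the first 4 of these genes. In ADCY10 untreated peaks covered 0, 0 and 0.365 kb in shTDP43 and 1.38, 1.40 and 0.840 kb in shNC libraries.

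Fixed gene lists were set beside all coding genes. Of 20 genes of common fragile sites, which are long genes prone to breakage under replication stress, 19 held a region, 107 regions in all, a median of 5 per gene against 0 over all coding genes. Per available Mb this was 3.33, against 3.30 over all coding genes. Of 17 genes with TDP-43-dependent cryptic exons, 3 held a region: KALRN (3 regions), a guanine nucleotide exchange factor gene, CAMK2B (2), a neuronal kinase gene, and RSF1 (1), a chromatin remodelling gene. Among 8 loci often used as DRIP controls only FBXL17 held any (3), and it is the gene of 523 kb among loci with a median of 9.17 kb. Regions lay in 8 of 392 olfactory receptor genes, 19 of 250 zinc finger genes of chromosome 19, 0 of 87 histone genes, 1 of 152 keratin genes (KRT74) and 2 of 65 protocadherin genes (PCDH9 with 3 and PCDH15 with 1). These classes differ in gene length, so their shares of genes are not set against that of all coding genes. Per available Mb, cryptic exon genes held 5.21 regions on 6 regions in all, DRIP control loci 4.34 on 3, zinc finger genes of chromosome 19 held 4.80 on 25, olfactory receptor genes 3.16 on 9 and protocadherin genes 0.845 on 4, against 3.30 over all coding genes. Except for fragile site genes, these densities rest on 25 regions or fewer.

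The density of the regions differed between chromosomes. It ran from 1.54 per Mb on chromosome 22 to 4.39 per Mb on chromosome 7, measured up to the end of the last annotated gene. The overlapping treated regions ran from 1.11 per Mb on chromosome 18 to 19.2 per Mb on chromosome 19, and untreated regions from 13.5 per Mb on the X to 92.2 per Mb on chromosome 19. On chromosome 19, rich in genes, the regions seen only after RNase H stood at 2.41 per Mb. Over 23 chromosomes, the Spearman correlation with untreated density was 0.23 for these regions and 0.95 for overlapping treated regions. Both sets were defined by overlap with untreated peaks, so the contrast between these values follows from the rule and is given as a description only. Their peaks in shTDP43 RNase H and shNC RNase H had a correlation of 0.81 over chromosomes, which share length and copy number.

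**Figure D3:**
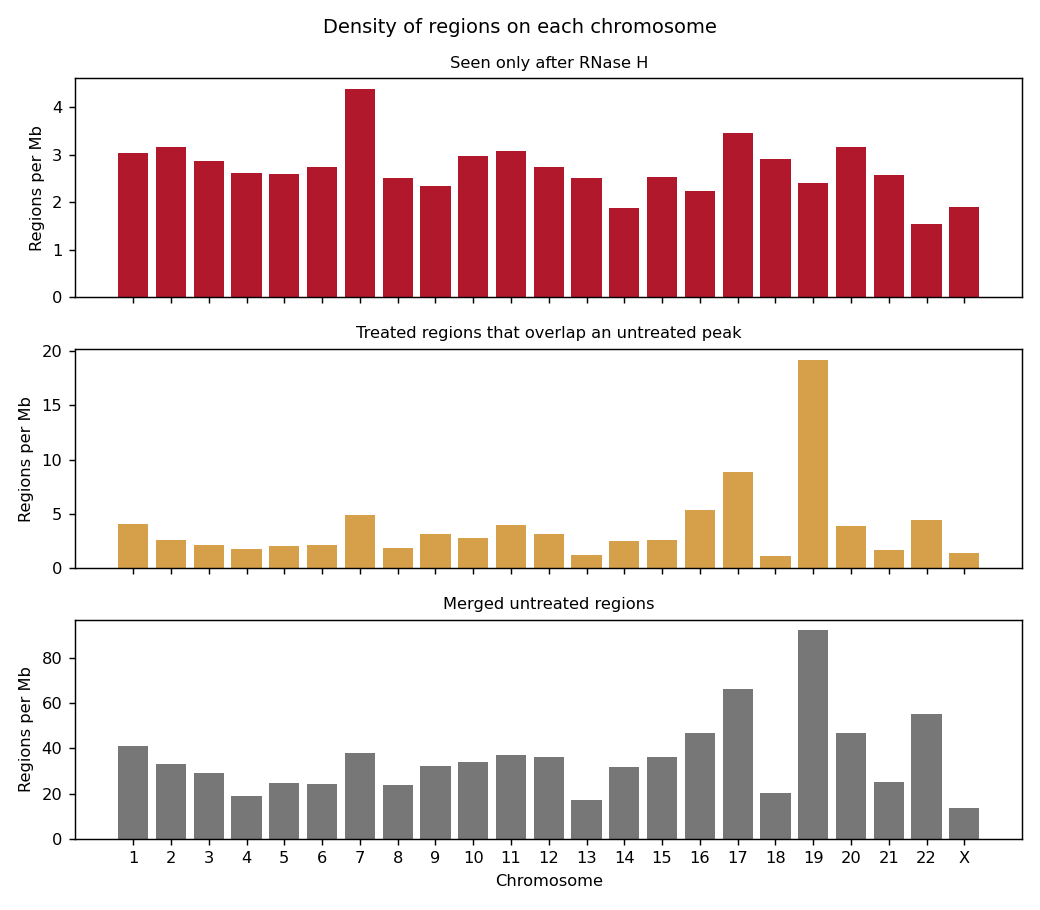
Regions per Mb on each chromosome for regions seen only after RNase H (top), treated regions that overlap an untreated peak (middle) and merged untreated regions (bottom), each on its own linear scale from 0. Chromosome 19 is highest in the lower panels (19.2 and 92.2 per Mb), and chromosome 7 is highest in the top panel (4.39 per Mb).

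Local background was raised on some of the chromosomes with a high density. The median background at their summits on chromosome 7 was 1.34 in shTDP43 RNase H and 1.32 in shNC RNase H, where the floors were 0.991 and 0.936. On chromosome 17 it was 1.30 in shTDP43 RNase H and 1.22 in shNC RNase H, and on chromosome 1 it was 1.23 and 1.21 in those libraries. Chromosomes 20 (3.17 regions per Mb) and 11 (3.09 per Mb) were denser than chromosome 1 (3.04 per Mb), yet their background was at or near the floor, at 0.991 in shTDP43 RNase H on both and at 0.997 and 0.936 in shNC RNase H. Peaks that overlapped an untreated peak had a raised background on chromosome 7 too, 1.32 in shTDP43 RNase H and 1.25 in shNC RNase H. For the regions seen only after RNase H, background on chromosome 7 was above 1.1 times the floor at most summits. The share was 89.0% in shTDP43 RNase H and 90.5% in shNC RNase H, against 41.8% and 48.3% over all chromosomes. SH-SY5Y is known to carry extra copies of chromosome 7 and of parts of chromosomes 1, 2 and 17. Copy number was not measured here, and its part in these densities was not tested.

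Smaller bins showed some of the same places. In 293 bins of 10 Mb the median was 28 regions, with quartiles of 22 and 33 and a highest count of 59, and 8 bins held 0. Of the 20 fullest bins, 8 were on chromosome 7, 4 each on chromosomes 1 and 2, and 2 each on chromosomes 17 and 3. Those of chromosome 3, with 51 and 44 regions, had a background of 0.991 in shTDP43 RNase H and 0.936 in shNC RNase H. At 200 to 210 Mb of chromosome 2 (47 regions) it was 1.03 and 0.988. The rest of the 20 had at least 1.28 in shTDP43 RNase H and 1.19 in shNC RNase H. The bins of chromosome 7 had a median of 45. Bins of chromosome 1 from 150 Mb on had a median of 40, against 27 for bins up to 120 Mb. On chromosome 2 it was 44 up to 50 Mb, against 29.5 from 100 Mb on, and on chromosome 17 it was 37 from 30 Mb on, against 27 up to 20 Mb. The remaining 231 bins had a median of 26. These stretches were chosen after their values were seen. The bin at 140 to 150 Mb of chromosome 1, counted among the remaining bins, held 18 regions. Its background was 1.30 in shTDP43 RNase H and 1.40 in shNC RNase H. Median background in the 4 fuller stretches was 1.35 to 1.44 in shTDP43 RNase H and 1.30 to 1.39 in shNC RNase H, and over the remaining bins it was 0.991 and 0.936. Over 285 bins with a value, the number of regions had a Spearman correlation of 0.28 with the background in shTDP43 RNase H and 0.42 with that in shNC RNase H. With the number of untreated regions it was 0.33 over 293 bins, against 0.83 for overlapping treated regions, which the rule selects for having an untreated peak. Bins share library and depth, so no p is given.

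**Figure D4:**
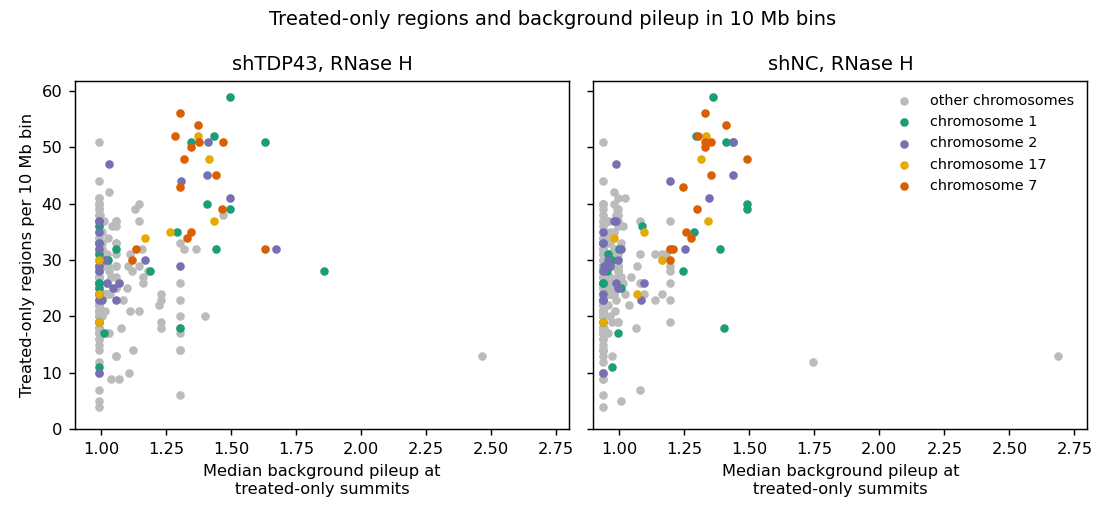
Number of regions seen only after RNase H in each 10 Mb bin (y) against the median background pileup at their summits in that bin (x), in shTDP43 RNase H (left) and shNC RNase H (right). Each point is 1 bin, coloured for chromosomes 1, 2, 7 and 17. The left panel's x axis leaves out the bin at 30 to 40 Mb of chromosome 16 (12 regions), whose background was 11.4 in shTDP43 RNase H. Bins of chromosome 7 lie to the right of the floors of 0.991 and 0.936, with a median of 45 regions against 26 in the remaining bins.

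Edges of shared regions coincided to the base between the libraries of both hairpins. Of the 2174 regions in both treated libraries, 1742 (80.1%, 78.4 to 81.8) had at least 1 edge at exactly the same base in shTDP43 RNase H and shNC RNase H, and 544 (25.0%) had both. Of the 3262 overlapping treated regions, 70.3% (68.7 to 71.8) had at least 1 and 38.4% had both. In the 15 pairs of untreated libraries, 54.7% to 63.0% of shared regions had at least 1 and 12.1% to 17.8% had both. Limited to widths of 300 to 1500 bp, at least 1 edge coincided in 80.3% of the regions seen only after RNase H, 73.9% of the overlapping treated ones and 47.6% to 55.0% in untreated pairs. Regions with both edges at the same base had a median width of 745 bp and a median lower fold of 6.72, and regions with neither had 743 bp and 4.34. The summit lay a median of 122 bp from the nearer edge in shTDP43 RNase H and 127 bp in shNC RNase H.

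**Figure D5:**
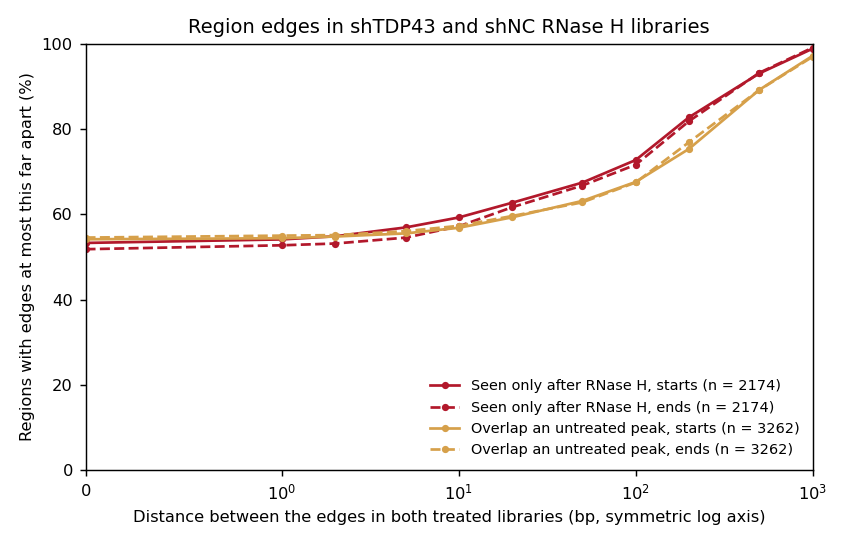
Percent of regions called in both treated libraries whose starts (solid) or ends (dashed) in shTDP43 RNase H and shNC RNase H lie at most a given distance apart (x, bp, symmetric log axis). Red marks 2174 regions seen only after RNase H and ochre 3262 treated regions that overlap an untreated peak. All 4 curves begin at 51.8% to 54.6% at a distance of 0 bp.

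Many of the edges that could be read lay at restriction sites. Sequence was at hand only in promoter windows, where 26 edges of these regions fell. Of these, 13 (95% interval for the share, 32.1% to 67.9%) lay exactly at a cut of 1 of the 5 enzymes, 4 at HindIII, 3 at EcoRI, 3 at SspI, 2 at XbaI and 1 at BsrGI, whose recognition sites are the capitals in the sequences above. Of all positions in the windows, 0.0967% are such cut positions. Overlapping treated regions had 40 of 326 edges at a cut (12.3%, 9.14 to 16.3), and untreated regions 731 of 1732 (42.2%, 39.9 to 44.5). Edges at a cut were thus found in treated and untreated lists, at a lower share in overlapping treated regions than in the other 2 sets. The 5 sites are palindromes, so a match on 1 strand is a match on both, and none contains another.

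The promoter windows under these regions also differed in base composition from the windows under other treated regions. The 45 windows had a median GC content of 47.7%, against 66.3% for 670 windows under other treated regions, 66.3% for 15563 under an untreated peak and 58.7% for all 34781 windows. At least 1 restriction site was in 17 of the 45 (37.8%), against 9.10% under other treated regions and 22.7% of all windows. Among the 17 windows under a region called in both libraries it was in 3 (17.6%). Windows with a region edge at a cut hold a site by construction, so this share is not independent of the edges above. A G-tract motif, 4 runs of at least 3 G with 1 to 7 bases between them on either strand, was in 7 of the 45 (15.6%). It was in 37.0% under other treated regions and in 25.0% of all windows. The 19166 windows under no peak of any library had a GC content of 49.7%, a restriction site in 31.0% and the G-tract motif in 15.2%. On these measures the 45 windows together were near the windows without a peak, though those under regions of both libraries held a site less often. Because the windows under untreated peaks were removed by the rule, this is a description. The 44 regions behind these windows are a small share of the 8410, and regions outside promoters were not read.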

How the data were processed

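DRIP-seq peaks were measured in 8 libraries of SH-SY5Y cells, grouped by the sample titles. Peaks were listed per library. Per the submitters' processing notes, the hg38 build, MACS2 2.2.6, Bowtie2 2.4.4 and SAMtools were used. Which control MACS2 was given is not stated in the labels. An input library was not analysed here. The deposited lists give, per peak, the authors' fold enrichment (a ratio over local background), −log10 p and −log10 q values, a score (10 times −log10 q, whole part) and the summit offset.

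Peaks were merged where they touched, overlap was counted from 1 bp, and genes came from the GRCh38.p14 RefSeq table, without exons. Only promoter windows of 300 bases had sequence. Pileup and background were solved at 99.9% of treated summits by matching fold and −log10 p within 0.001, and the untreated libraries' floors came from 5000 summits each. Python 3.11.15, numpy 2.4.6, pandas 2.3.3 and scipy 1.17.1 were used. Wilson intervals at 95% cover counting error only. Interval sums matched a brute-force count in 800 simulated cases with 0 differences, and 1944 simulated pileups were recovered with 0 differences.

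Named regions were, by rule, the 10 of both libraries with the highest lower fold and the 5 widest, and the 5 highest and 2 widest of each single library. Named genes held most regions (10), or most per 100 kb (5), or belong to a fixed list, with at most 3 per list. The regions, lists and tests were chosen with earlier results of these data known. Alternatives changed the overlap rule, the q threshold, list length, merging and the untreated libraries used. The main comparison did not use replicate numbers to pair the samples.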

Additional observations from a re-analysis of the deposited data

How the results depend on the processing

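In all, 85 alternative values were computed, of which only the nearness differences have a direction that could change. Among the counts and shares, 18 moved, a count by over 1.5 times or a share past its interval. The nearness differences stayed negative in every alternative run, though several changed in size by over 1.5 times. Their p-values are no check on this, since the smallest possible was 0.1, or 0.25 with the replicate block. The number of regions stayed between 5641 and 9803 except with treated peaks at −log10 q of at least 5, where it was 3190. The share of treated regions seen only after RNase H was 43.5% when no untreated peak was allowed within 1 kb and 49.2% when untreated peaks could cover under 50% of a region. It was 41.9% with treated peaks and 53.9% with untreated peaks at −log10 q of at least 5, 45.4% with treated lists of equal length and 47.6% with peaks within 500 bp merged. The share in both treated libraries was 28.03% (under 50% covered), 28.7% (treated q), 29.3% (untreated q), 30.9% (equal length) and 28.5% (500 bp merging). The share outside coding genes was 57.9% with the 1 kb rule and 54.5% with the untreated q rule. Ignoring overlaps of up to 4 bp, an alternative chosen after seeing the data, gave 8452 regions.

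Leaving out each untreated library gave 8470 to 8858 regions, shares of 46.6% to 48.7% seen only after RNase H, 25.9% to 27.7% in both libraries and 56.0% to 56.4% outside coding genes. The shTDP43 minus shNC difference in nearness was −2.68 to −0.47 percentage points for regions in both libraries, −2.84 to −0.38 for shTDP43 RNase H alone and −2.61 to −0.20 for shNC RNase H alone. With treated peaks at −log10 q of at least 5 it was −1.71, −2.57 and −0.92 for the 3 classes. With the replicate number as a block the differences were −1.75, −1.87 and −1.72 (exact permutation p = 0.75 each, smallest possible 0.25). Same-numbered libraries deviated in opposite directions over 3020 bins (correlations of −0.74, −0.37 and −0.25). Their background floors, a relative depth, rose with the number in shTDP43 and fell with it in shNC. Depth was not separated from pairing, so whether the numbers pair the samples is not settled. Treated libraries were 1 per genotype, so differences between them have no replicate check, and their summits rested on a median pileup of 10. The causes of these shifts were not tested.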

Other observations

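Outside chromosomes 1 to 22 and X, unplaced or unlocalised sequences held 43 peaks in shTDP43 RNase H, of which 21 had no untreated peak, with a highest fold of 19.5. In shNC RNase H they held 70 peaks, of which 44 had no untreated peak, with a highest fold of 28.4. The mitochondrial genome held 5 peaks in each treated library, of which 0 lacked an untreated peak.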
